A study of Mus musculus with 6 samples.

Results

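The genes described here are the mouse DNA methyltransferases and the proteins that help them maintain methylation, namely Dnmt1, Dnmt3a, Dnmt3b, Dnmt3l, Uhrf1, Uhrf2, Hells and Trdmt1. They were chosen by name, and all 8 were among the 14162 genes with values. RNA was sequenced from whole lungs of mouse embryos at E12.5, while the airways branch. The Dnmt1KO group held 3 libraries from lungs labelled ShhCre-Dnmt1KO, in which Cre recombinase expressed under the control of Shh removes Dnmt1 from Shh-expressing cells, which in the lung are the epithelium. The WT group held 3 libraries from wild-type littermates, and the labels name Cre in the Dnmt1KO group only. The lungs were not sorted by any step named in the labels, so mesenchyme, vessels and blood outside the Shh lineage contribute to every value. The labels do not say whether a library was 1 embryo or a pool, nor which exons the Dnmt1 allele loses.

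DNA methylation sits mainly on the cytosine of CpG pairs and is copied each time a cell divides. UHRF1 recognises the hemimethylated DNA that replication leaves behind and brings DNMT1, which methylates the new strand, while HELLS remodels nucleosomes so that methylation can reach packed chromatin. DNMT3A and DNMT3B place methylation at new sites, helped in germ cells by DNMT3L, which has no catalytic activity of its own. UHRF2 resembles UHRF1 without replacing it in maintenance, and TRDMT1, once called DNMT2, methylates transfer RNA rather than DNA.

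The libraries held between 18192629 and 25597662 reads over all genes, and the deposited log2 values differ from a simple scaling to these totals by little, the scaled totals lying between 0.997 and 1.02 of their median. Dnmt1KO replicate 1 held 3 reads over 4 Y-linked genes, against 4155 to 5207 in the other 5 libraries, so it was the library that differed in sex. Of the markers used to check the tissue, 28 of 28 lung epithelium genes and 18 of 18 lung mesenchyme genes were measured. No gene with values had fewer than 60 reads in total, so none could be at 0 reads in all libraries.

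Dnmt1 was the member with the lowest p, and its estimated level was lower in Dnmt1KO lungs, without a call over all genes. Reads per gene do not tell intact transcript from transcript that lacks the deleted exons. The deposited log2 values of Dnmt1 in replicates 1, 2 and 3 were 15.57, 15.40 and 15.31 for Dnmt1KO lungs, while those for WT lungs were 15.72, 15.74 and 15.76. Each Dnmt1KO library was below each WT library, with replicate 3 the lowest, and the Dnmt1KO libraries were more spread (SD 0.13) than the WT libraries (SD 0.022). The estimated Dnmt1 level in Dnmt1KO lungs was 80.7% of that in WT lungs, with a 95% limma interval of 70.3% to 92.7%. The interval is for this gene alone, and over all genes limma did not call it (log2 difference -0.31, adjusted p = 0.507, unadjusted p = 0.00713). In a bulk sample, fewer cells that make a transcript and less of it in each cell cannot be told apart. With 3 libraries a group, the exact two-sided permutation p for Dnmt1 was at its smallest possible value, 0.1. There were 198 genes with a smaller p than Dnmt1, 46 of them lower in Dnmt1KO.

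None of the 8 members passed limma's adjusted p threshold of 0.05 in either direction, where 0.29% of all genes did. At an unadjusted p under 0.05 the count was 1 of 8, Dnmt1, against 4.52% of all genes, and voom on the recovered reads gave the same counts of 0 and 1. The Dnmt1KO and WT values did not overlap for 2 of the 8 members, Dnmt1 and Uhrf1, both lower in Dnmt1KO. Over all genes 8.78% had no overlap in either direction and 3.99% were lower without overlap. The median log2 difference of the 8 was -0.015, against -5.88e-05 over all genes tested. Of the 8, 5 were below 0, against 50% of all genes.

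**Figure D1:**
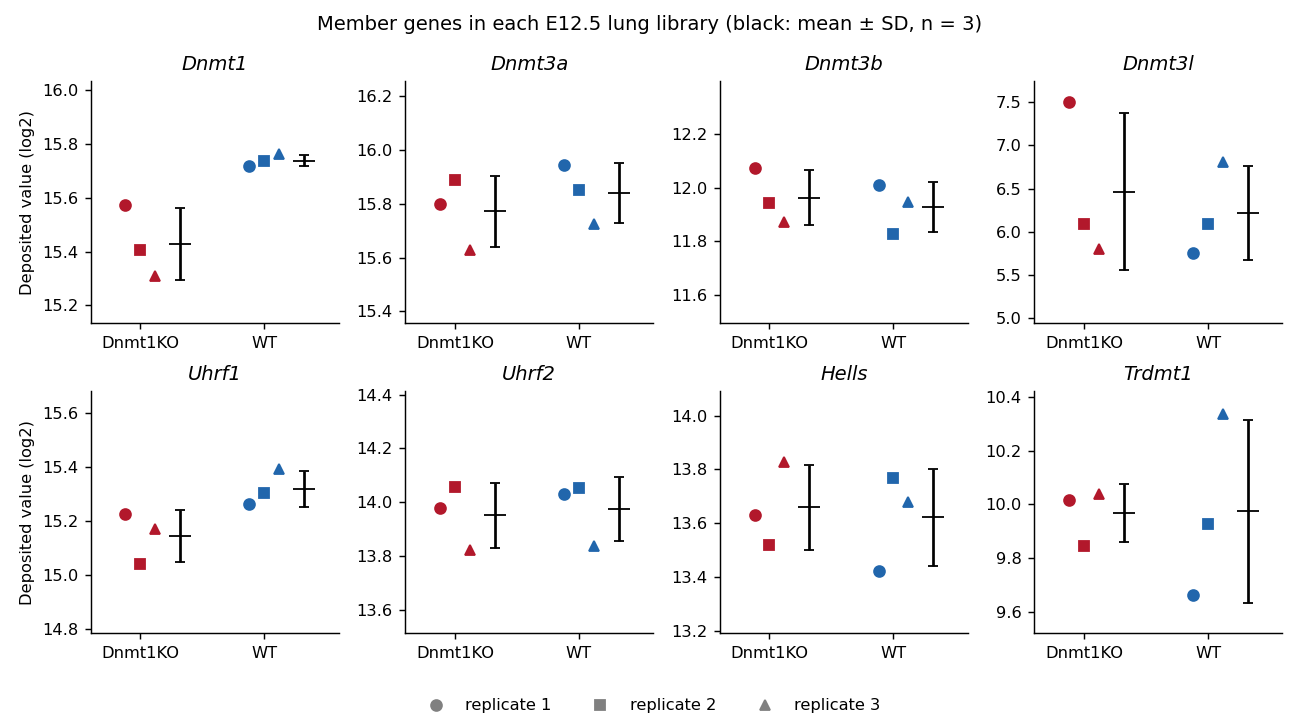
Deposited log2 value of each member (y axis, a span of 0.9 in every panel except Dnmt3l with 2.8) in the 3 Dnmt1KO and 3 WT libraries, with replicate 1 as a circle, 2 as a square and 3 as a triangle, and the mean ± SD in black. The Dnmt1KO values lie below all WT values for Dnmt1 and Uhrf1 and overlap them in the other 6 panels.

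Uhrf1, the partner that brings DNMT1 to newly copied DNA, was the member nearest to Dnmt1 in direction and size. Its log2 values were 15.23, 15.04 and 15.17 in Dnmt1KO lungs and 15.26, 15.30 and 15.39 in WT lungs. The groups were separate, but Dnmt1KO replicate 1 and WT replicate 1 differed by less than the spread within either group. The estimated Uhrf1 level in Dnmt1KO was 88.5% of WT, with an interval of 77.7% to 101%, and it did not pass (log2 difference -0.18 ± 0.08 SE, limma adjusted p = 1). Uhrf2, its relative, had log2 values of 13.98, 14.06 and 13.82 in Dnmt1KO and 14.03, 14.05 and 13.84 in WT. The groups overlapped almost fully, at 98.5% of WT with an interval of 84.6% to 115%.

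Hells, the chromatin remodeller, had log2 values of 13.63, 13.52 and 13.83 in Dnmt1KO lungs, against 13.42, 13.77 and 13.68 in WT lungs. The highest value was a Dnmt1KO library and the lowest a WT library. The estimate was 103% of WT with an interval of 85.1% to 124% (limma adjusted p = 1).

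The de novo enzymes gave no call. Dnmt3a had log2 values of 15.80, 15.89 and 15.63 in Dnmt1KO and 15.94, 15.85 and 15.72 in WT, which is 95.5% of WT with an interval of 81.9% to 111%. The lowest Dnmt3a value was Dnmt1KO replicate 3, the library that was also lowest for Dnmt1 and Uhrf2. Dnmt3b was covered by 771, 776 and 775 reads in Dnmt1KO and by 1031, 719 and 895 reads in WT. WT replicate 1 was the most deeply sequenced library, and it stayed the highest of the WT libraries after scaling. After scaling, the log2 values of Dnmt3b were 12.07, 11.94 and 11.87 in Dnmt1KO and 12.01, 11.83 and 11.95 in WT. They overlapped, at 102% of WT with an interval of 88.0% to 119%. Both had limma adjusted p = 1.

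Dnmt3l, the germ cell cofactor, was close to the limit of measurement. It was covered by 32, 13 and 11 reads in Dnmt1KO replicates 1, 2 and 3, while the WT replicates had 13, 13 and 25. The library with the most reads was Dnmt1KO replicate 1, and the other Dnmt1KO libraries lay within the WT range after scaling to depth. Pooled per group, the ratio of scaled reads was 1.28, with an exact Clopper-Pearson 95% counting interval of 0.862 to 1.91 that covers counting error only, and 0.793 without Dnmt1KO replicate 1. The limma estimate of 0.25 ± 0.55 (SE, adjusted p = 1) had the widest interval of the 8, from 49.9% to 282% of WT, and turned to -0.27 without that library.

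The gene model of Dnmt3l shares 67 of its 2988 exonic bases with Aire, which lies on the opposite strand and encodes the autoimmune regulator known from thymic epithelium. Aire, looked at for this overlap after its values were seen, was covered by 102, 28 and 63 reads in Dnmt1KO lungs and by 16, 7 and 7 reads in WT lungs. All Dnmt1KO libraries were above all WT libraries in Aire (log2 difference 2.75 ± 0.54 SE), but it did not pass over all genes (limma adjusted p = 0.131). Whether reads were counted by strand is not given in the sources used here, so reads of Aire and Dnmt3l from the shared bases cannot be told apart.

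Trdmt1, the transfer RNA methyltransferase, had log2 values of 10.02, 9.84 and 10.04 in Dnmt1KO and 9.66, 9.93 and 10.34 in WT. All 3 Dnmt1KO values lay inside the range of the WT values. The estimate was 99.5% of WT with an interval of 73.8% to 134% (limma adjusted p = 1).

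**Figure D2:**
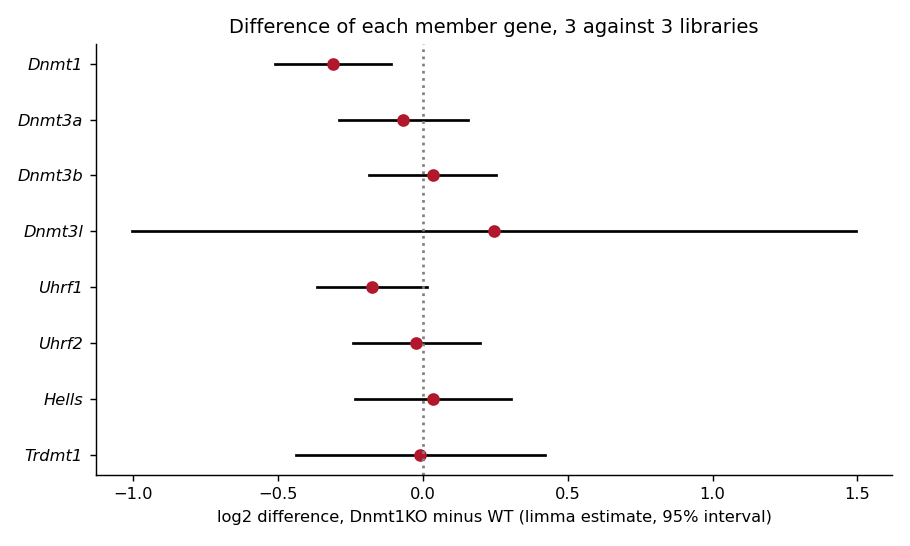
Log2 difference of each member between Dnmt1KO and WT lungs (x axis, limma estimate as a dot) with its 95% interval as a line, from 3 against 3 libraries. The interval for Dnmt1, from -0.51 to -0.11, lies below 0, that for Uhrf1 ends at 0.013, and that for Dnmt3l is the widest.

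Levels were compared between genes per length, in RPKM, reads divided by gene length in kb and by the library total. Per kb of annotated exons, Uhrf1 averaged 93.5 ± 4.8 and Dnmt1 72.0 ± 1.5 in WT lung (SD, n = 3). Dnmt3a followed at 34.3 ± 2.6, Uhrf2 at 18.2 ± 1.3, Hells at 17.1 ± 2.0 and Dnmt3b at 7.43 ± 0.54. Trdmt1 stood at 2.59 ± 0.64 and Dnmt3l at 0.247 ± 0.10. Neighbours in this order had separate ranges over the WT libraries, except Uhrf2 and Hells, which overlapped. Uhrf1 and Dnmt1 were above 97.3% and 95.9% of all genes by this measure, Dnmt3b above 51.0% and Dnmt3l above 3.63%.

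The length used decides the place of Dnmt3a, whose annotated exons span 16642 bases and whose coding sequence spans 2833 bases. Per kb of coding sequence Dnmt3a came first in WT lung, at 201 ± 15, ahead of Uhrf1 at 170 ± 9 and Dnmt1 at 109 ± 2 (SD, n = 3). The same reads, not limited to coding sequence, were divided by either length. Coding length therefore raises most the genes with much non-coding exon, such as Dnmt3a, and which member was highest is not settled. The other 5 kept the order Uhrf2, Hells, Dnmt3b, Trdmt1 and Dnmt3l, at 65.04, 50.02, 14.7, 7.99 and 0.585, and no neighbours overlapped. Under both lengths the de novo transcripts in WT lung were mainly Dnmt3a, with Dnmt3b far lower and Dnmt3l lowest.

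**Figure D3:**
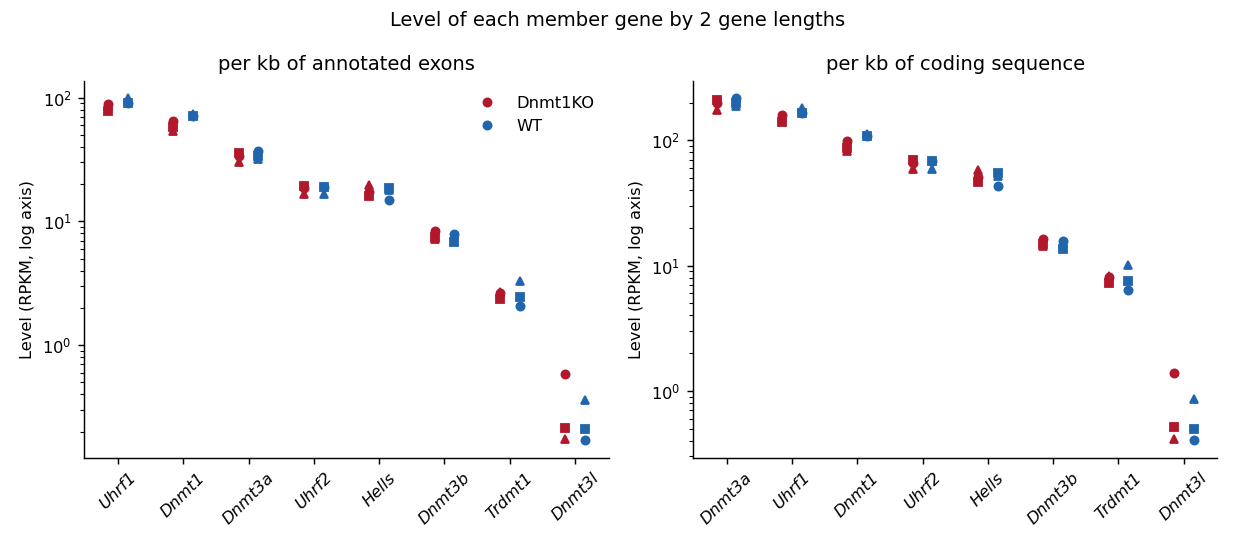
Level of each member in RPKM (log y axis), per kb of annotated exons on the left and per kb of coding sequence on the right, with Dnmt1KO libraries in red left of WT libraries in blue and replicates 1 to 3 as circle, square and triangle. Dnmt3a moves from the third place to the first between the panels, while the last 5 genes keep their order.

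Because a ratio of reads within a library does not depend on how libraries were scaled, Dnmt1 was also set against each other member. Dnmt1 made up 44.2%, 40.1% and 42.7% of the reads of the 4 Dnmt genes in Dnmt1KO lungs, while its share in WT lungs was 44.5%, 46.5% and 48.8%. The Wilson 95% intervals, which cover counting error only, were 43.6% to 44.9% for Dnmt1KO replicate 1 and 43.9% to 45.1% for WT replicate 1, which overlap, so these shares separated the groups only narrowly. The mean log2 ratio of Dnmt1 to each of the other 7 members was lower in Dnmt1KO in all 7 cases, which all share the Dnmt1 values, and the ratio of Dnmt1 to any other gene with reads in all libraries was lower for 97.1% of genes. The groups did not overlap against Dnmt3b, Uhrf1, Uhrf2 and Hells, 4 of the 7, where 45.2% of all such ratios did not overlap, so neither count sets these members apart from other genes.

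The log2 ratio of Dnmt1 to Dnmt3b reads was 3.50, 3.46 and 3.44 across the Dnmt1KO lungs, while the WT lungs had 3.71, 3.91 and 3.82, with a clear gap between the groups. The ratio of Dnmt1 to Uhrf1 reads was 1.27, 1.29 and 1.10 in Dnmt1KO and 1.37, 1.35 and 1.29 in WT, with almost no gap. An exact two-sided permutation test of the Dnmt1 to Uhrf1 ratio gave p = 0.1, the smallest that 3 against 3 libraries allow, for a log2 difference of -0.13, which was -0.060 without Dnmt1KO replicate 3.

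**Figure D4:**
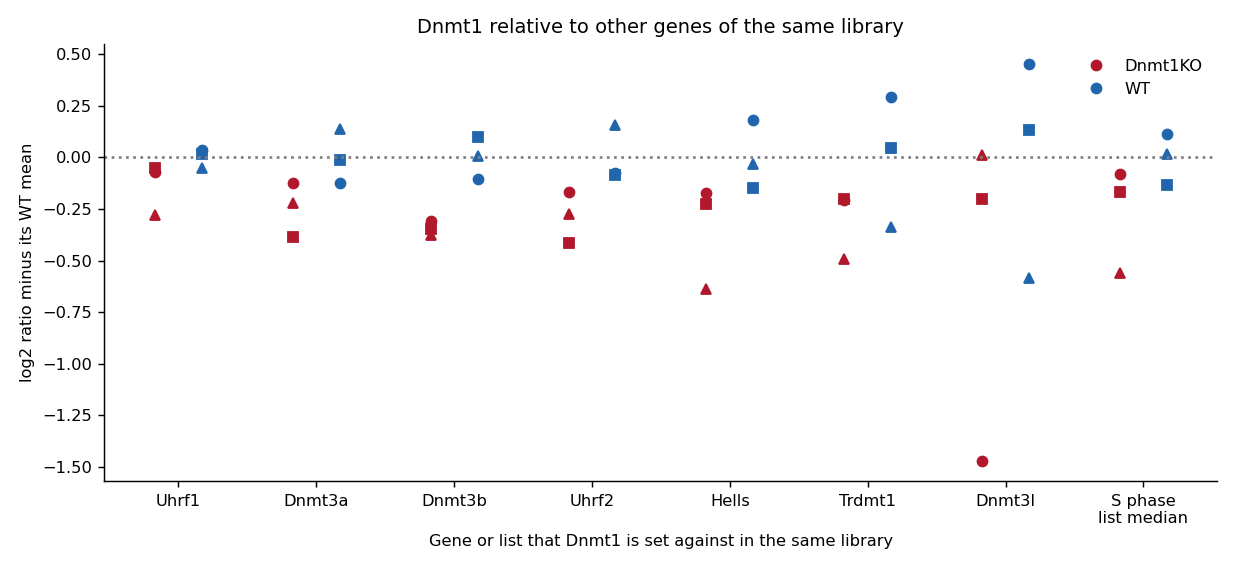
Log2 ratio of Dnmt1 to each other member and to the median of the S phase genes in the same library, minus its WT mean (y axis), with Dnmt1KO libraries in red left of WT libraries in blue and replicates 1 to 3 as circle, square and triangle. The 3 Dnmt1KO ratios to Dnmt3b lie together below WT, while the ratio to Dnmt3l is spread by Dnmt1KO replicate 1.

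DNMT1, UHRF1 and HELLS are made mainly by cells that copy their DNA, so these genes were compared with 31 genes of S phase, such as Mcm2, a subunit of the replicative helicase, and Pold1, the catalytic subunit of a replicative polymerase. None of the 31 passed limma's adjusted p threshold. At an unadjusted limma p under 0.05, 3 of the 31 were lower and 0 higher, where 4.52% of all genes were in either direction. Of the 31, 27 had a negative log2 difference and the median was -0.076, against 50% negative over all genes. These depended on single libraries, with 19 negative and a median of -0.028 without Dnmt1KO replicate 2, and 31 negative and a median of -0.14 without WT replicate 1. Mcm2 averaged 14.88 ± 0.04 in Dnmt1KO lungs and 15.09 ± 0.11 in WT lungs (SD of 3, log2 difference -0.21, adjusted p = 0.968). Pold1 was at 14.02 ± 0.14 in Dnmt1KO and 14.24 ± 0.003 in WT (log2 difference -0.21, adjusted p = 1). The groups did not overlap in Mcm2 or in Pold1, the genes of smallest p in this list, where 3.99% of all genes were lower without overlap. Dnmt1 stood above the median S phase gene of its own library by 2.02, 1.93 and 1.54 on the log2 scale in Dnmt1KO and by 2.21, 1.96 and 2.11 in WT. The groups overlapped in that measure, with a log2 difference of -0.27 (exact two-sided permutation p = 0.2), which was -0.12 without Dnmt1KO replicate 3. By the same measure Uhrf1 overlapped between the groups, with a log2 difference of -0.14. Hells went the other way, at 0.072, 0.043 and 0.058 in Dnmt1KO and -0.083, -0.0026 and 0.033 in WT. Its groups did not overlap, with a log2 difference of 0.075. Neither was tested, and the share of all genes without overlap in this measure was not computed. The 16 mitosis genes, such as Top2a, which untangles DNA, had a median log2 difference of 0.0079, with 7 of 16 below 0 and none past the test.

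The promoter windows of Dnmt1, Uhrf1 and Hells are shown because they carry letters of the E2F consensus, the site of the factors that switch on S phase genes, while no window of the other 5 members does. Windows run from 250 bases before to 50 after a RefSeq gene start in GRCm38.p6 and all 8 members had at least 1. The motifs searched on both strands were TTTCCCGC, TTTCGCGC, TTTGGCGC and TTTGCCGC, and matches are in capitals, a match on the opposite strand appearing as its reverse complement. The motifs were chosen after the windows had been read, and no match overlapped another. Dnmt1 and Dnmt3a each had 3 windows and Uhrf1 had 2, and in Dnmt1 and Uhrf1 only the window printed held a match. The windows are Dnmt1 at chr9:20952574-20952873 on the minus strand, Uhrf1 at chr17:56304063-56304362 and Hells at chr19:38930740-38931039, both on the plus strand.
Dnmt1: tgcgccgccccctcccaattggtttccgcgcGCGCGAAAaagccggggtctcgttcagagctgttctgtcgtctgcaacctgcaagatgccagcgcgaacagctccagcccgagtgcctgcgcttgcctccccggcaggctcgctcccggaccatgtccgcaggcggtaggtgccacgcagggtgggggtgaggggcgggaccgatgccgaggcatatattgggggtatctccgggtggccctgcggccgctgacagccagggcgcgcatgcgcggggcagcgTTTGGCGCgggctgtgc
Uhrf1: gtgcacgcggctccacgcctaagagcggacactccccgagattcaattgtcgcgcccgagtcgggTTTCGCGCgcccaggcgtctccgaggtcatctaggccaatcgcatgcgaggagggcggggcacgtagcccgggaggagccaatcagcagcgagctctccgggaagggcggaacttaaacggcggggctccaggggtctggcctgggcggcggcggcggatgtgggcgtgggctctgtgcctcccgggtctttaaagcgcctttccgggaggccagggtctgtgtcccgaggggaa
Hells: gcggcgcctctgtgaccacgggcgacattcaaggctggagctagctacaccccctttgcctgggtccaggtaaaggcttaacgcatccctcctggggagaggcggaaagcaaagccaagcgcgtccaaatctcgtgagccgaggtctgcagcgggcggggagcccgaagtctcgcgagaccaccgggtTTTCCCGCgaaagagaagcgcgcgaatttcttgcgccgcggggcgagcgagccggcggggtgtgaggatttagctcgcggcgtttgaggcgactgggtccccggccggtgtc

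The Dnmt1 window held TTTCGCGC on the opposite strand from base -219 and TTTGGCGC from base 33, counted from the gene start as 0. The Uhrf1 window held TTTCGCGC from base -185 and the Hells window TTTCCCGC from base -62. Such a match was present in any window of 3 of the 8 members, of 10 of the 26 S phase genes with a window and of 2.61% of the 27025 genes with a window. Among other lists described here it was present in 4 of 17 genes that work beside DNMT1, 2 of 10 germ cell genes, 1 of 14 mitosis genes and 0 of 19 lung epithelium genes. The motifs were chosen after the windows were read, and genes with more windows can match more often. The share of the members is therefore a description and not a test. The printed windows held 33, 33 and 34 CpG pairs in Dnmt1, Uhrf1 and Hells, against a median of 7 over all windows. They were printed for a match, and every motif searched holds a CpG itself. The windows without a match held 2 and 12 in Dnmt1 and 12 in Uhrf1, and the 3 windows of Dnmt3l held 6, 4 and 3. Dnmt3a had the most among the members, 47 in 1 of its windows. A match of letters is a description of the window and says nothing about binding in these lungs, where Dnmt1 and Uhrf1 were lower without overlap and Hells was not.

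Genes that work beside DNMT1 were measured as a list of 19, with Pcna, Lig1 and Chaf1a also on the S phase list. None passed limma's adjusted p threshold. Of the 19, 16 had a negative log2 difference, against 50% of all genes, and the median was -0.060. Without Dnmt1KO replicate 2 the median was -0.037, with 13 negative. The members with the smallest p were Csnk1d, a casein kinase, at -0.13 ± 0.07 (SE, adjusted p = 1), and Ehmt1, a histone H3 lysine methyltransferase, at -0.11 ± 0.08 (adjusted p = 1). Usp7, the deubiquitinase that stabilises DNMT1 and UHRF1, was at 0.0077 ± 0.079, and Cdca7, the activator of HELLS, at -0.096 ± 0.086. Of 16 measured genes that guide or limit de novo methylation, none passed, 9 were below 0 and the median was -0.021. Nsd2, a histone methyltransferase, was at -0.16 ± 0.07 and Zbtb16 at -0.72 ± 0.37, each with adjusted p = 1, and Zbtb16 had no more than 92 reads in any library.

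The supply of methyl groups was followed through 21 measured genes of the folate and S-adenosylmethionine cycles, none of which passed limma's test, with 11 below 0 and a median log2 difference of -0.022. Mat2a, the form of the S-adenosylmethionine synthetase found in most tissues, was at -0.089 ± 0.075. Mat1a, the form known from adult liver, was covered by 114, 64 and 111 reads in Dnmt1KO lungs and by 33, 38 and 44 reads in WT lungs. Every Dnmt1KO library was above every WT library in Mat1a, by 1.49 ± 0.31 on the log2 scale, but the gene did not pass (adjusted p = 0.172). Mthfd2, a mitochondrial folate enzyme, was at -0.13 ± 0.10 (adjusted p = 1).

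Among 9 genes for methylated cytosine in RNA, the setting of Trdmt1, none passed and the median was -0.046, with Nop2 at -0.15 ± 0.08 and Nsun3 at 0.21 ± 0.21. Of 15 TET demethylases, readers of methylated CpG and related genes, none passed and the median was -0.026. Of the 15, 10 were below 0, against 50% of all genes. Mbd3 was at -0.21 ± 0.10 and Zbtb38 at 0.17 ± 0.12, all 4 named genes of these lists having adjusted p = 1.

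**Figure D5:**
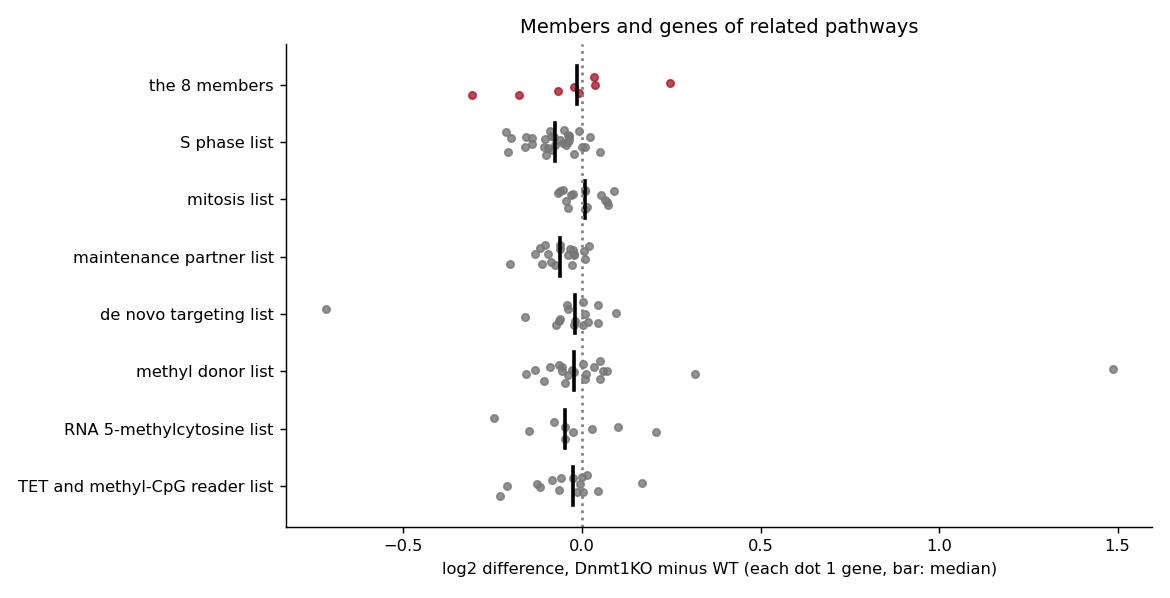
Log2 difference between Dnmt1KO and WT lungs (x axis) for each gene as a dot, with the 8 members in the top row, 7 lists of related genes below and the median as a bar. The S phase and maintenance partner dots lie mostly left of 0, with medians of -0.076 and -0.060, and Mat1a stands apart at 1.49.

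Markers of cell types were set beside these values because Shh, which drives the Cre, is a gene of the lung epithelium. Shh itself was at -0.98 ± 0.22 (SE, limma adjusted p = 0.213). The labels name Cre in the Dnmt1KO group only, and the part of the Cre in Shh and its targets was not tested. Summed over 28 lung epithelium genes, the level in RPM, reads scaled to the library total, was 1501 to 2032 in Dnmt1KO libraries and 1689 to 1972 in WT libraries, with a median log2 difference of -0.088, which was -0.23 without Dnmt1KO replicate 3 and 0.046 without WT replicate 2. None of the 28 passed limma's adjusted p threshold. At an unadjusted limma p under 0.05, 3 of the 28 were higher and 6 lower, where 4.52% of all genes were in either direction. The genes of this list with the smallest p were the surfactant gene Sftpc and the homeobox gene Irx1, at 1.58 and -0.96 with adjusted p of 0.0585 and 0.0589. Summed over 18 lung mesenchyme genes it was 7039 to 8099 in Dnmt1KO and 6744 to 8049 in WT, and 1 of the 18, the Hedgehog receptor Ptch1, fell (-0.63, adjusted p = 0.0258), though it did not pass without either Dnmt1KO replicate 1 or 2 or WT replicate 2 or 3 (adjusted p 0.0822 to 0.174). Ptch1 also did not pass with the replicate number as a block (0.0532), without the lowest 25% of means (0.138) or without trend and robust estimation (0.102). The Hedgehog target Gli1 was at -0.33 (adjusted p = 0.187). Over 8 endothelium genes it was 565 to 755 in Dnmt1KO and 460 to 713 in WT, with Cldn5 at -0.11 and Tek at 0.18.

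All 14 measured erythroid genes had a positive log2 difference, where 50% of all genes had a negative one, and none passed. At an unadjusted limma p under 0.05, 4 of the 14 were higher, where 4.52% of all genes were in either direction. Nfe2 and Hba-a1 were at 0.58 each (limma adjusted p = 0.911 and 0.949). The list median was 0.55, which was 0.25 without Dnmt1KO replicate 3. The sum of the 14 genes was 2297, 1906 and 3193 RPM in Dnmt1KO lungs, while WT lungs had 1413, 1916 and 1922 RPM. The highest sum was in Dnmt1KO replicate 3, the library with the lowest Dnmt1 value. The Dnmt1 difference was -0.25 without that library, and the part of blood in it was not tested. Of 14 germ cell genes listed, 8 were measured, while Pou5f1, Nanog, Dppa3, Prdm14, Sycp3 and Mael had no values. Of the 8, 1 rose, the RNA-binding protein gene Dazl (limma adjusted p = 0.00346, but 0.13 with voom), and Ddx4 was at 1.48 with adjusted p = 0.612. At an unadjusted limma p under 0.05, 3 of the 8 were higher, where 4.52% of all genes were in either direction. Below 0 was 1 of the 8, against 50% of all genes. The sum of the 8 was 94.1 to 106 RPM in Dnmt1KO and 51.02 to 59.5 RPM in WT. Without Dazl, which held 50.1 RPM in Dnmt1KO replicate 3 and no more than 0.146 RPM in any WT library, the sum of the other 7 was 80.3, 76.9 and 56.3 RPM in Dnmt1KO and 54.2, 50.9 and 59.4 RPM in WT, and the groups overlapped. Dnmt3l, which germ cells use, did not separate the groups beside them.

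The members also differed in how they varied over the 6 libraries. After centring each gene on its mean, Dnmt3a and Uhrf2 were the closest of the 28 pairs of members, with a root-mean-square difference of 0.043 on the log2 scale, and Dnmt1 and Uhrf1 came next at 0.10. Among all named genes at least as variable as Dnmt1, those nearest to it were Prkg1 at 0.036, P4htm at 0.039 and Clec16a at 0.062, from 5478 candidates. These 3 averaged 214, 137 and 918 reads a library, against 8388 to 13466 for Dnmt1, so counting error is larger in them. For Hells they were Snrpa1 at 0.025, Tmem222 at 0.026 and Smc4, a condensin subunit, at 0.028. For Dnmt3b they were Zmym3 at 0.015, Ppt1 at 0.018 and Hps5 at 0.019. These are likenesses over 6 libraries picked from all named genes of that variability and carry no test.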

How the data were processed

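The deposited table of each library gave log2 values per Ensembl gene, per the file headers. STAR, limma and mm9 are named in the submitters' processing notes, without versions or roles; the counter, strand setting and scaling were not given in the sources used here. Every value was the log2 of a whole number of reads plus 0.5, times a constant of the library (100% of values within 1e-06 reads). The lowest gene total was 60 reads, so rarer genes were not analysed here. Symbols and lengths came from GENCODE M21 (GRCm38), naming 13967 of 14162 identifiers, and promoter windows from RefSeq.

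Members and lists were chosen with earlier results of these data known. All genes were fitted with limma 3.58.1 in R 4.3.3 on the deposited log2 values, genotype as the only term, with trend, robust moderation and Benjamini-Hochberg adjustment over all genes (threshold 0.05); the fit was tested on simulated data. P-values measure the spread between 3 samples a group, which may be technical. Named were all members, the 2 genes of smallest p per list, some further genes for their role, chosen after their values were seen, and the 3 nearest patterns of 4 members, of which those of Uhrf1 are not reported here. Alternatives were the replicate block, removal of the 25% lowest means, 3 other scalings, an offset of 2 reads, moderation without trend, sample weights, voom and leaving out each library.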

Additional observations from a re-analysis of the deposited data

How the results depend on the processing

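No member passed under any of the 15 alternatives, the smallest adjusted p being 0.203, and of 119 recomputed member differences 100 kept their sign and 19 turned. Dnmt1 and Uhrf1 kept theirs throughout. As each library was left out, the difference ran from -0.38 to -0.25 for Dnmt1, -0.22 to -0.12 for Uhrf1, -0.13 to 0.0046 for Dnmt3a, -0.021 to 0.079 for Dnmt3b, -0.27 to 0.58 for Dnmt3l, -0.090 to 0.043 for Uhrf2, -0.065 to 0.11 for Hells and -0.16 to 0.17 for Trdmt1. Otherwise the sign turned with sample weights for Dnmt3a (0.022), Dnmt3l (-0.015), Uhrf2 (0.067) and Hells (-0.048), with quantile normalization for Dnmt3l (-0.45) and Uhrf2 (0.0062), and for Trdmt1 when scaled to read totals (0.0073) or with voom (0.013). The cause was not tested.

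Over all genes 40 were called higher and 1, Ptch1, lower. Leaving out 1 library at a time gave 15 to 42 and 0 to 17. These were 0 and 0 without the lowest 25% of means, 57 and 12 with sample weights, and 0 lower without trend and robust estimation. With the replicate number as a block they were 26 and 0, and Dnmt1 had adjusted p = 0.483. Same-numbered libraries correlated at -0.0027, -0.18 and 0.31 in their deviations from group means, and differently numbered ones at -0.37 to 0.38. Such deviations cancel within a group of 3, so these values cannot show whether the numbers pair the samples. The Dnmt1 to Uhrf1 ratio ran from -0.17 to -0.060 and Dnmt1 against S phase genes from -0.36 to -0.12, or -0.23 with the list's mean. With 17 reads a WT library on average, depth limits what can be said of Dnmt3l.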
